A study of Schizosaccharomyces pombe with 9 samples.

Results

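The transcriptome of an *ash2*Δ strain of fission yeast (*Schizosaccharomyces pombe*) was compared with that of a wild type (WT) strain, on 2 of the 9 microarrays of the series, 1 array per strain. The comparison took in every *S. pombe* gene for which the array annotation names a probe set, 2899 genes on 2917 of 10928 probe sets, of which 2870 were above background on at least 1 of these 2 arrays. The remaining 29 genes were at background on both and were given no ratio. The study screened gene deletions for sensitivity to DNA damage and profiled untreated cells of 8 of them, and the other 7 arrays, of *sgf73*Δ, *sec65*Δ, *pab1*Δ, *meu29*Δ, *SPAC27D7.08c*Δ, *SPAC3F10.17*Δ and *SPBC2A9.02*Δ, serve here only to show where a signal lies among the 9. The WT label gives the strain SP286, called diploid, with the genotype h+ *ade6-M210 ura4-D18 leu1-32*. The labels of the *ash2*Δ array give the deletion and nothing else of the genotype, and the study took its deletions from a bought library of haploid strains. A difference of ploidy or of strain background therefore cannot be told apart from the deletion in any ratio to WT. Cells of both strains were in exponential growth, at an OD600 of 0.5 to 1, and received no treatment. With 1 array per strain no ratio below has a replicate check, no p-value was computed, and precision is limited by the number of arrays.

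Ash2 is a subunit of the Set1 complex (COMPASS), which methylates lysine 4 of histone H3 at the start of transcribed genes. In fission yeast Ash2 and its partner Sdc1 are also found with Lid2, a JmjC protein of the family that removes this mark. The Set1 complex is further known for repression of certain genes, among them subtelomeric genes, stress genes and Tf2 retrotransposons. Ubiquitin on histone H2B, attached by the ligases Brl1 and Brl2, is known to promote methylation by the Set1 complex.

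Signals are printed on the linear scale, as 2 to the power of the deposited log2 values. Background was the 95th percentile of the *S. cerevisiae* probe sets that the same array carries, 36.1 to 40.1 signal units over the 9 arrays, and a signal under it was set to it for the ratio. The other 7 arrays differed from WT by an SD of 0.29 to 0.59 log2 units over genes, and *ash2*Δ by 0.39. On the array with the label *sec65*Δ and on that with the label *pab1*Δ, the gene of the label was still well above background, at 2671 for *sec65*+ and 1170 for *pab1*+. The control probe sets of actin gave a 3' over 5' ratio of signals of 1.02 in *ash2*Δ, 1.04 in WT and 0.949 to 1.02 elsewhere. Those of 18S rRNA gave 0.406 in *ash2*Δ, the lowest of the 9 arrays, 0.790 in WT and 0.473 to 0.946 elsewhere, a difference in an RNA quality control whose part in the ratios below was not tested. The control probe sets of *ura4*+ lay at 21.8 to 36.4 in *ash2*Δ and 18.6 to 27.3 in WT, below background in both, while the named *ura4*+ probe set was at 107 in *ash2*Δ, the highest of the 9 arrays, and 65.7 in WT, level with the lowest of the others, a log2 ratio of 0.70. Of the mating pheromone genes, *map2*+, which encodes the P-factor, was at 125 in *ash2*Δ and 99.7 in WT, and *mfm1*+, which encodes an M-factor, was at 68.3 and 70.6. On other arrays *map2*+ reached 12858. These 2 arrays were both near the low end for *map2*+ and *mfm1*+. *mfm2*+ and *mfm3*+, also M-factor genes, were at 243 and 216 in *ash2*Δ and 109 and 126 in WT. *mam1*+ and *mam2*+, likewise M cell genes, were at 468 and 203 in *ash2*Δ and 565 and 222 in WT. The P cell genes *map3*+ and *map4*+ were at 210 and 1272 in *ash2*Δ and 189 and 1066 in WT. Genes of both cell types were above background on both arrays, so that the h+ mating type of the WT label could not be checked against them.

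The deleted gene was the gene with the lowest ratio of all. *ash2*+ (SPBC13G1.08c, chromosome II) had a signal of 31.6 in *ash2*Δ and 905 in WT, and of 896, 1097 and 1458 as the lowest, median and highest of the other 7 arrays. The *ash2*Δ array was at background and all other arrays were close together, a level at least 23.0-fold lower than WT. Among the genes on either side of *ash2*+, 5 of the 10 nearest had a named probe set, and their log2 ratios lay between -0.31, for *swf1*+, which encodes a palmitoyltransferase, and 0.18, for *rqt2*+. None of these 5 was changed 2-fold, and the same held under each of 10 alternative settings.

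The transcripts of the other subunits of the complex stood near their WT level. For *set1*+, which encodes the methyltransferase, the signal was 628 in *ash2*Δ and 596 in WT, and 493, 580 and 721 in the other deletions, a log2 ratio of 0.07. *swd1*+, a WD repeat subunit gene, had 1285 in *ash2*Δ and 1612 in WT, with 1486, 1679 and 1851 elsewhere, a log2 ratio of -0.33. *ash2*Δ was thus the lowest of the 9 arrays for *swd1*+, by a small margin, and within the range of the others for *set1*+. The ratios of *swd2*+, *swd3*+, *spf1*+ and *shg1*+ lay between -0.08 and -0.04 on the log2 scale. *sdc1*+, the partner of *ash2*+, had 1406 in *ash2*Δ, and its 1114 in WT was the lowest of the 9, a log2 ratio of 0.34. Over the 8 members of the Set1 complex the median log2 ratio was -0.05, beside -0.01 for all 2870 genes, with *ash2*+ itself the only member past 2-fold.

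Of the Lid2 complex, *lid2*+ was the member farthest above WT. Its signal was 1888 in *ash2*Δ and 1221 in WT, with 1083, 1263 and 1697 in the other deletions, a ratio of 1.55. *ash2*Δ was the highest of the 9 arrays for *lid2*+, above the next by 1.11-fold. *jmj3*+, *snt2*+ and *sdc1*+ had log2 ratios of 0.27, 0.12 and 0.34, and the median over the 5 members was 0.27. None other than *ash2*+ reached 2-fold.

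Over all genes, 21 were at least 2-fold higher in *ash2*Δ than in WT, 0.732% of the 2870, and 43 at least 2-fold lower, 1.5%, together 64 or 2.23%. At 1.5-fold the counts were 86, 3%, and 159, 5.54%, and 91.5% of all genes lay within 1.5-fold of WT. Changed genes were mostly weakly expressed. Of the 957 genes with the weakest mean signals 13 were higher and 29 lower, of the 956 in the middle 5 and 11, and of the 957 strongest 3 and 3, while the SD of the log2 ratio was 0.50, 0.38 and 0.25. By chromosome, 9 higher and 17 lower genes lay among 1288 measured on I (0.699% and 1.32%), 10 and 15 among 1092 on II (0.916% and 1.37%), and 2 and 11 among 490 on III (0.408% and 2.24%). Of the 11 lower genes on III, 6 were *wtf* genes.

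**Figure D1:**
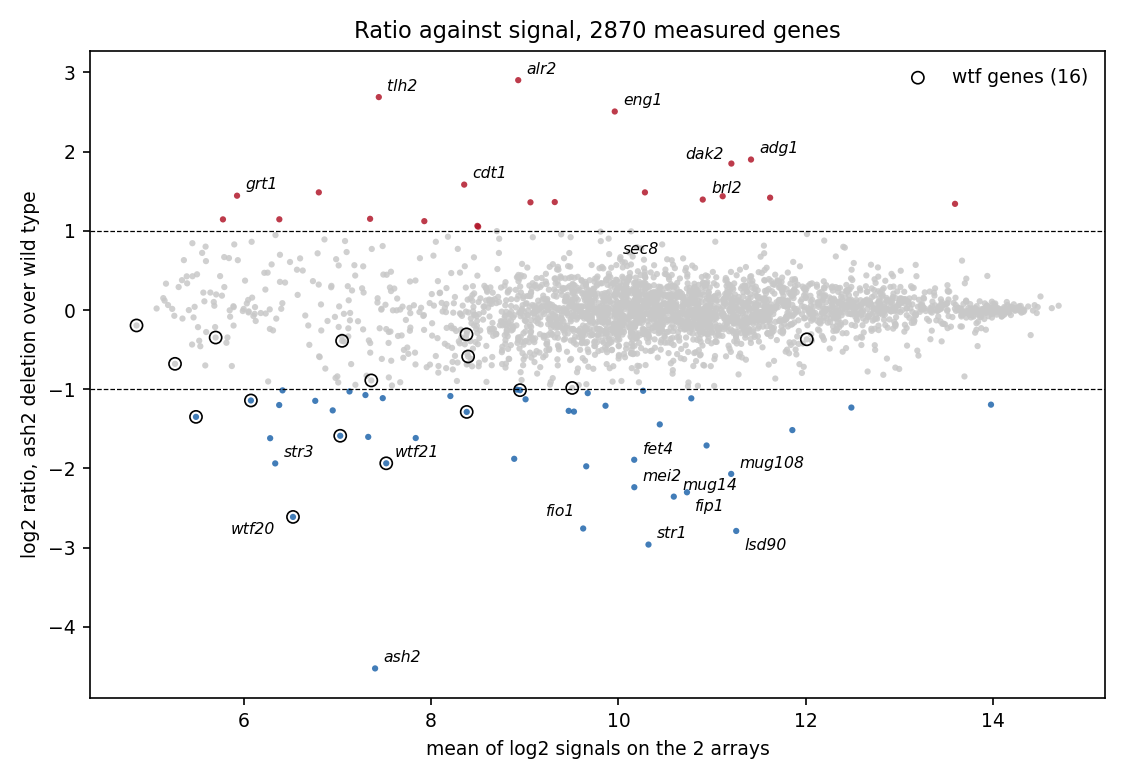
Log2 ratio of *ash2*Δ over WT (vertical axis) against the mean of the log2 signals on the 2 arrays (horizontal axis) for 2870 genes. Red points were at least 2-fold higher (21 genes), blue points at least 2-fold lower (43 genes), dashed lines mark 2-fold and open circles mark 16 *wtf* genes, all below 0.

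Because a ratio to WT can come from either array, each changed gene was placed among all 9. For the 43 lower genes, *ash2*Δ was the lowest of the 9 arrays in 26, beside 15.4% of all genes, and WT was the highest in 8, beside 5.64%, with 5 genes in both counts and 14 in neither. For the 21 higher genes, *ash2*Δ was the highest in 8, beside 8.71% of all genes, and WT was the lowest in 11, beside 8.92%, with 2 in both counts and 4 in neither. Set against the median of the other 7 deletions, 17 of the 43 lower genes were still at least 2-fold lower in *ash2*Δ and 6 of the 21 higher genes at least 2-fold higher. Another 21 and 13 kept their side but fell short of 2-fold. The remaining 5 lower genes, *mug108*+, *fet4*+, *gld1*+, *pyp2*+ and *inv1*+, and the remaining 2 higher genes, *dak2*+ and *mfm2*+, lay on the opposite side. The changed genes are accordingly described below with the signals of the other deletions.

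**Figure D2:**
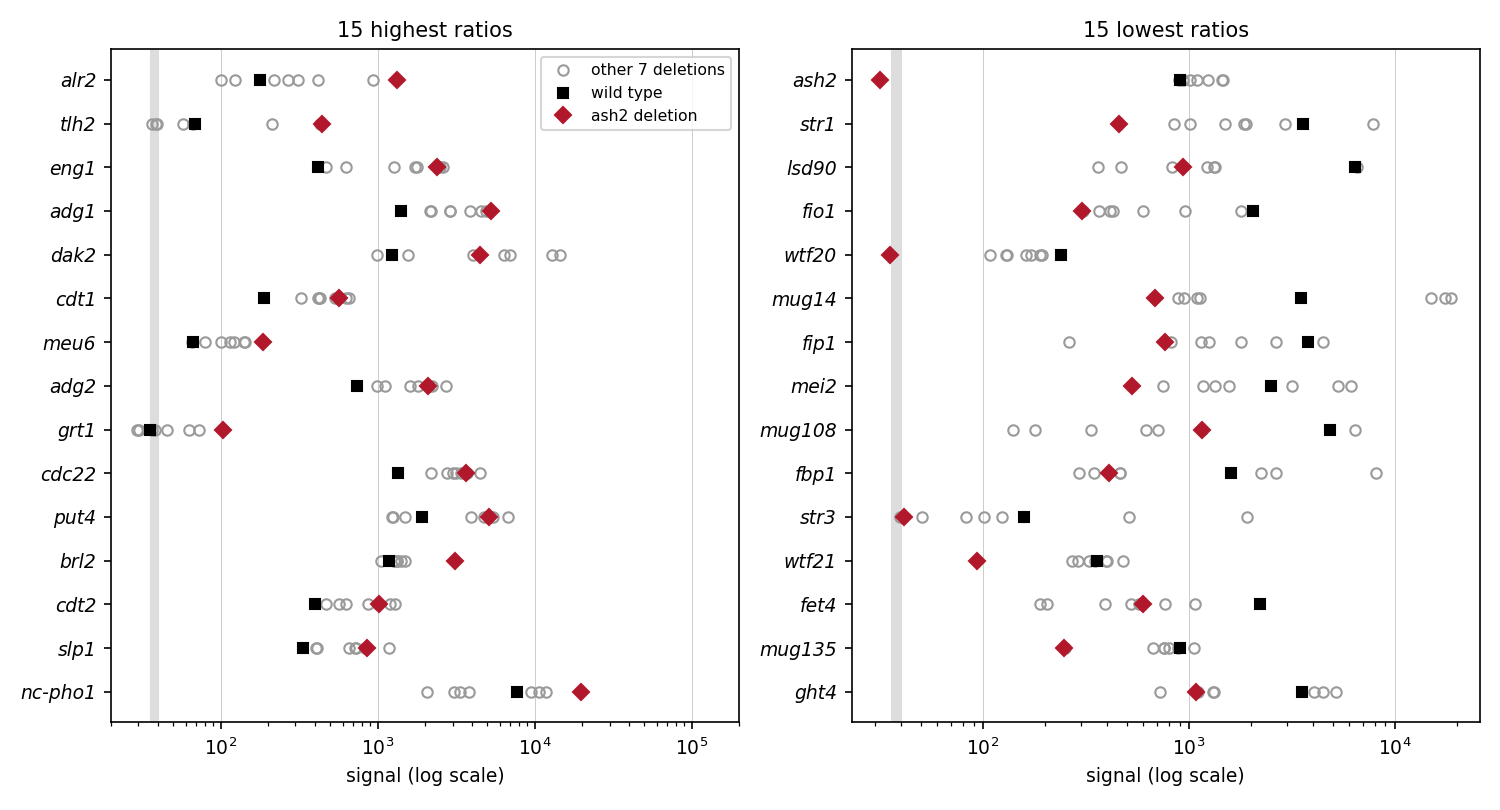
Signals (log scale) of the 15 genes with the highest and the 15 with the lowest ratio. Red diamonds are *ash2*Δ, black squares WT, open circles the other 7 deletions, 1 array each, and the grey band marks background on the 9 arrays. *brl2*+ and *wtf21*+ show *ash2*Δ outside the other 8 arrays, while *eng1*+ and *cdc22*+ show WT below all 8 deletions.

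In 9 genes the *ash2*Δ signal was separated from all the other 8 arrays by 2-fold or more. It was below them in 8 (0.279% of 2870), which were *ash2*+, *wtf21*+, *wtf20*+, *rmi1*+, *slm5*+, *rev1*+, *dot2*+ and *wtf9*+, and above them in 1 (0.0348%), which was *brl2*+. For WT the same count was 1, *fet4*+, which was above the 8 deletions.

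The 43 lower genes, 1.5% of all genes, held 7 members of the *wtf* family, which was taken up after its values had been seen. *wtf* genes are meiotic drivers. Many encode a poison that kills spores and an antidote that protects the spores inheriting the gene, and most of the family lies on chromosome III. Of 25 annotated *wtf* genes 16 had a probe set of their own and all 16 were measured, 15 of them on chromosome III and 5 annotated as pseudogenes.

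All 16 had log2 ratios below 0, from -2.61 to -0.19, beside 51.8% of all measured genes, with a median of -0.94 beside -0.01. *wtf20*+ had a signal of 35.4 in *ash2*Δ, at background, and of 240 in WT, with 108, 162 and 192 in the other deletions. WT was the highest array and *ash2*Δ the lowest, at least 6.11-fold below WT. *wtf21*+ had 94.0 in *ash2*Δ and 359 in WT, with 271, 351 and 477 elsewhere, and a log2 ratio of -1.93. WT lay amid the other deletions for *wtf21*+, and *ash2*Δ was 2.88-fold below the lowest of these 8 arrays.

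The pseudogene *wtf17* had 75.4 in *ash2*Δ and 227 in WT, with 144, 156 and 312 in the other deletions, a log2 ratio of -1.59. *wtf9*+ had 213 in *ash2*Δ and 520 in WT, with 428, 480 and 583, a log2 ratio of -1.29. For both, *ash2*Δ was the lowest of the 9 arrays, and WT lay among the other deletions. *wtf10*+ was below background in *ash2*Δ, at 20.2, and at 100.1 in WT, with 60.1, 77.2 and 104 elsewhere, at least 2.55-fold below WT. *wtf16*+ had 45.5 and 100.3, with 52.0, 68.6 and 87.2 elsewhere, and the pseudogene *wtf1*, on chromosome I, had 348 and 702, with 396, 674 and 923, log2 ratios of -1.14 and -1.01. *ash2*Δ was again the lowest array for each of these 3 genes.

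With signals raised to background the other 9 *wtf* genes lay inside 2-fold, at log2 ratios of -0.98 for *wtf15*+ to -0.19 for *wtf5*+. For *wtf5*+ and the pseudogene *wtf3* the *ash2*Δ signal was below background. Their log2 ratios of -0.19 and -0.68 are therefore bounds, and both genes were lower than WT by at least that much. Without the floor at background, 9 *wtf* genes were at least 2-fold lower in place of 7. *wtf14*+, whose signal was by far the strongest of the family, had 3629 in *ash2*Δ and 4687 in WT, with 2355, 3880 and 4901 in the other deletions, a log2 ratio of -0.37. *ash2*Δ was inside the range of the other arrays for *wtf14*+. *ash2*Δ had the lowest of the 9 signals for 13 of the 16 genes, the second lowest for *wtf11*+ and *wtf12*, and the third lowest for *wtf14*+. Under background the order of signals has no meaning. With signals raised to it *ash2*Δ was lowest for 12 of the 16, beside 15.4% of all genes.

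In the other 7 deletions the family had median log2 ratios to the same WT array of -0.35 to 0.32, with 0 or 1 of the 16 genes at least 2-fold lower. With the other 7 deletions as the reference, 4 *wtf* genes were at least 2-fold lower in *ash2*Δ in place of 7. The family's sequences resemble each other, so that RNA of one member can bind the probes of another, and the 16 values are not independent. The array names 14 of the 16 probe sets as matching 1 transcript each, and with probe sets of that kind alone 6 genes were 2-fold lower. Another 5 probe sets were named for 2 or 3 *wtf* genes at once. Of the 4 of these that were measured, 3 were at least 2-fold lower, at log2 ratios down to -1.24, and 1 lay at -0.15.

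**Figure D3:**
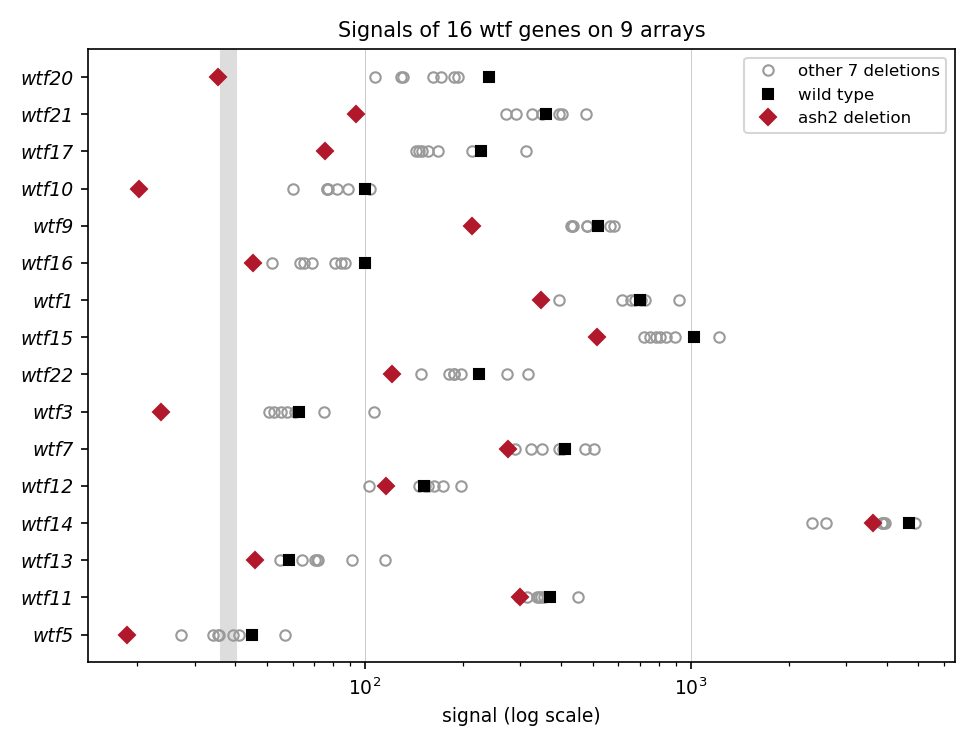
Signals (log scale) of 16 *wtf* genes, ordered by their ratio of *ash2*Δ to WT. Red diamonds are *ash2*Δ, black squares WT, open circles the other 7 deletions, 1 array each, and the grey band marks background on the 9 arrays. *ash2*Δ is the leftmost point in 13 of the 16 genes. With signals raised to background it was lowest in 12, beside 15.4% of all genes.

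The genes next to the *wtf* genes did not share the lower level as a group. Within 2 positions of a *wtf* gene in the gene order, 42 other genes were measured, with a median log2 ratio of -0.05, and none was at least 2-fold lower. The lowest of them was *mrpl22*+, a mitochondrial ribosomal protein gene, at -0.96. Its signal was 1323 in *ash2*Δ, the lowest of the 9 arrays, and 2566 in WT, with 2115, 2453 and 3485 in the other deletions. Of the 42, 1 was at least 2-fold higher, *brl2*+, which stands next to *wtf9*+ on chromosome III.

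*brl2*+ (SPCC970.10c) encodes a subunit of the ubiquitin ligase of histone H2B. Its signal was 3098 in *ash2*Δ and 1178 in WT, with 1047, 1337 and 1490 as the lowest, median and highest of the other deletions. The 8 arrays other than *ash2*Δ lay close together and *ash2*Δ was 2.08-fold above the highest of them, and the ratio to WT was 2.63. *brl1*+, which encodes the other subunit, had a log2 ratio of -0.31. The gene on the other side of *brl2*+ is *sec8*+, which encodes an exocyst subunit. Its signal was 1588 in *ash2*Δ and 797 in WT, with 586, 789 and 882 elsewhere. *ash2*Δ was again above all other arrays, by 1.80-fold over the next, and the log2 ratio to WT was 0.99.

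The annotated *brl2*+ and *sec8*+ genes overlap each other, and how far RNA of one of them reaches the probe set of the other was not tested. *brl2*+ and *wtf9*+ do not overlap. Another 15 genes within 12 positions of *brl2*+ had log2 ratios of -0.22, for *cif1*+, to 0.81, for *nap1*+, a histone chaperone gene, so that a 2-fold difference was seen in *wtf9*+ and *brl2*+ only, with *sec8*+ just inside it.

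**Figure D4:**
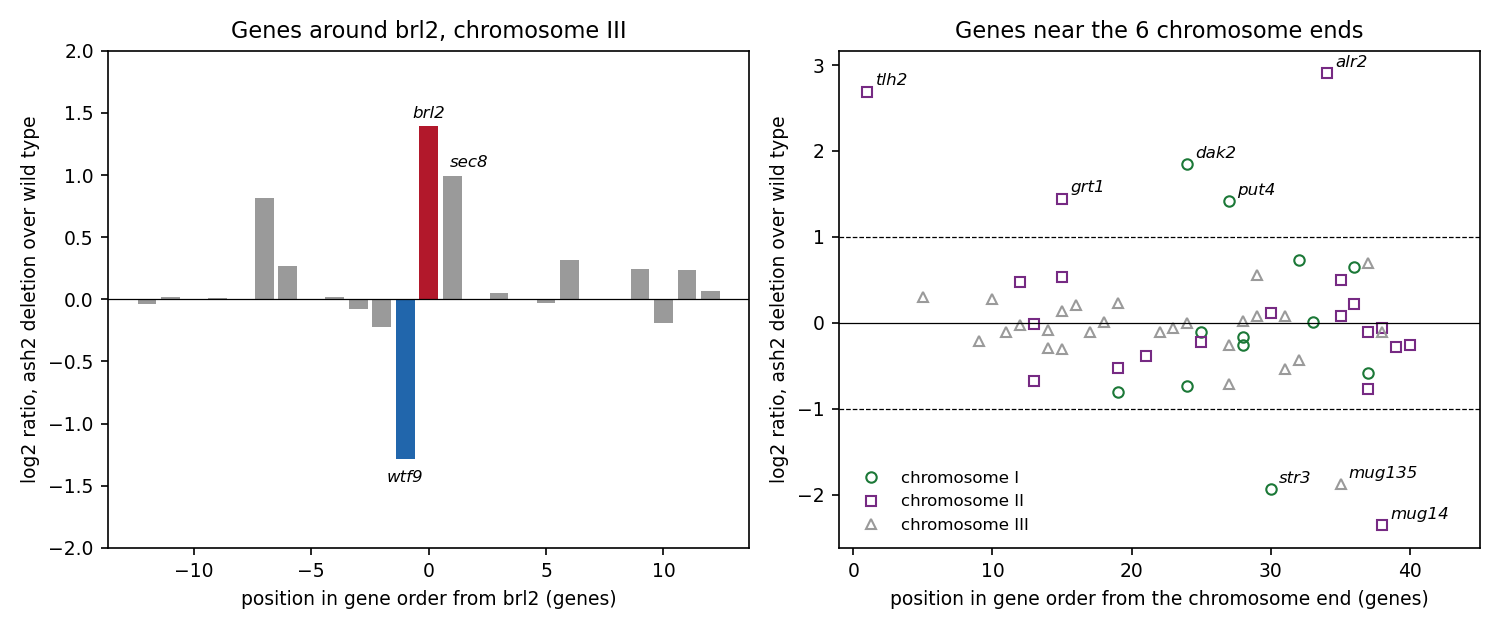
Left, log2 ratio of *ash2*Δ over WT of 18 measured genes within 12 positions of *brl2*+ in the gene order of chromosome III, with *brl2*+ in red, *wtf9*+ in blue and all other genes, *sec8*+ included, in grey. Right, log2 ratio of 59 measured genes by their position from the nearest chromosome end, with dashed lines at 2-fold and the 5 higher and 3 lower genes named.

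*ash2*Δ stood 2-fold below the rest for *rmi1*+, *slm5*+, *rev1*+ and *dot2*+ as well. *rmi1*+ encodes a partner of the RecQ helicase Rqh1 and of topoisomerase Top3. Its signal was 44.4 in *ash2*Δ, just over background, and 136 in WT, with 114, 156 and 343 in the other deletions, a log2 ratio of -1.62. *slm5*+, which encodes a mitochondrial asparagine-tRNA ligase, had 130.5 in *ash2*Δ and 400.0 in WT, with 309, 400.0 and 567, also a log2 ratio of -1.62. In both genes WT lay inside the range of the other deletions and *ash2*Δ alone was low.

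*rev1*+, which encodes a translesion DNA polymerase, had 54.9 in *ash2*Δ and 126 in WT, with 119, 137 and 168 in the other deletions, a log2 ratio of -1.20. *dot2*+, which encodes the Vps22 subunit of ESCRT-II, had 348 in *ash2*Δ and 761 in WT, with 750.0, 852 and 1027, a log2 ratio of -1.13. The 8 other arrays of *dot2*+ lay within a narrow band, and *ash2*Δ was 2.15-fold below it. These 4 genes were picked as at least 2-fold below each of the other 8 arrays. Their 2-fold distance from WT and from the median of the other deletions follows from that choice. At the opposite end, among the 10 genes farthest above the other 8 arrays were *klp5*+, which encodes a kinesin-8, *fhn1*+, *meu25*+ and *vps11*+, a vacuolar sorting gene. For *klp5*+ the signal was 1301 in *ash2*Δ and 696 in WT, the lowest of the 9, with 780.1, 802 and 883 elsewhere, a ratio of 1.87. The others had ratios to WT of 1.34 to 1.75, so that *ash2*Δ was the highest array for all 4 genes with none of them at 2-fold over WT.

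Of the 39 gene lists, that of iron uptake had the most members at least 2-fold lower. Fission yeast takes up iron through the ferroxidase Fio1 and the permease Fip1 after reduction by Frp1, and through siderophore and heme transporters of the Str family. The GATA factor Fep1 represses these genes when iron is plentiful. Of 22 measured genes of iron uptake and Fep1 regulation 7 were at least 2-fold lower in *ash2*Δ, beside 1.5% of all genes, and 0 higher, beside 0.732%, and the median log2 ratio was -0.33 beside -0.01.

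*str1*+, a siderophore transporter gene, had 458 in *ash2*Δ and 3568 in WT, with 844, 1840 and 7851 in the other deletions, a log2 ratio of -2.96. *ash2*Δ was the lowest of the 9 arrays, and WT the second highest. *fio1*+ had 303 in *ash2*Δ and 2051 in WT, with 305, 427 and 1795 in the other deletions, a log2 ratio of -2.76. Here WT was the highest array and *ash2*Δ was level with the lowest of the others. *fip1*+ had 766 and 3773, with 262, 1247 and 4472 elsewhere, a log2 ratio of -2.30, and *ash2*Δ was the second lowest array.

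*str3*+, a heme transporter gene, was near background in *ash2*Δ, at 41.3, and at 158 in WT, with 39.7, 101 and 1907 elsewhere, a log2 ratio of -1.94. *fet4*+, a low-affinity iron transporter gene, had 597 in *ash2*Δ and 2215 in WT, with 188, 522 and 1064 in the other deletions. All 8 deletions were below WT for *fet4*+, and *ash2*Δ was above their median. *frp1*+ and *php4*+, which encodes a repressor of iron-consuming genes, had log2 ratios of -1.05 and -1.02. For *php4*+ WT, at 1750, was the highest array and *ash2*Δ, at 863, was level with the lowest of the others. The gene of the repressor itself, *fep1*+, had 1097 and 905, a log2 ratio of 0.28, and copper genes such as *ctr4*+ and *ctr5*+ lay at 0.23 and 0.06. The 2-fold difference from the median of the other 7 deletions was kept by *str1*+ and *str3*+ alone of the 7.

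Among genes that the transcription factor Ste11 and the pheromone pathway connect to mating and meiosis, 23 were measured, of which 2 were at least 2-fold lower, beside 1.5% of all genes, and 0 higher, with a median of -0.32. *mei2*+, which encodes the RNA-binding protein that starts meiosis, had 530.2 in *ash2*Δ and 2499 in WT, with 752, 1561 and 6133 in the other deletions, a log2 ratio of -2.24. *ash2*Δ was the lowest of the 9 arrays. *ste4*+, which encodes an adaptor of the pheromone MAP kinase cascade, had 472 and 1149, with 430.1, 1574 and 2583 elsewhere, a log2 ratio of -1.28. *ash2*Δ was the second lowest array, with WT below the median of the others. *ste11*+ itself had 1491 in *ash2*Δ and 2896 in WT, with 908, 2911 and 7591, inside 2-fold at a log2 ratio of -0.96. *mei2*+ and *ste4*+ kept a 2-fold distance from the median of the other deletions.

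In all 19 of the 23 genes lay below 0, for example the RGS gene *rgs1*+ and the MAP kinase gene *spk1*+ at -0.79 and -0.78, and *ste6*+, which encodes an exchange factor of Ras1, was the highest at 0.89. The 101 measured *mug* and *meu* genes, named for their induction in meiosis, had a median of 0.01, with 6 at least 2-fold lower, beside 1.5% of all genes, and 2 higher, beside 0.732%. *mug14*+ had 681 in *ash2*Δ and 3488 in WT, and the other deletions lay at 882, 1129 and 18767, a log2 ratio of -2.36. The other arrays of *mug14*+ formed a low and a high group, and *ash2*Δ was at the bottom of the low one. *mug135*+ had 247 in *ash2*Δ and 908 in WT, with 250.4, 758 and 1057, a log2 ratio of -1.88. In 1 other deletion *mug135*+ was as low. *meu22*+, *mug143*+ and *mug133*+ had log2 ratios of -1.60, -1.11 and -1.07. *meu6*+ and *mug45*+ were at least 2-fold higher, at 1.49 and 1.15. For *meu6*+ *ash2*Δ, at 187, was above the 143 of the next array, and for *mug45*+ WT was the lowest array.

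Of 12 genes particular to M or P cells 1 was at least 2-fold higher, beside 0.732% of all genes. This was *mfm2*+, an M-factor gene. It had 243 in *ash2*Δ and 109 in WT, with 156, 421 and 3029 elsewhere, a log2 ratio of 1.15. WT was the lowest array for *mfm2*+, and *ash2*Δ was below the median of the other deletions.

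Of 23 measured genes of the core stress response, driven by the MAP kinase Sty1 and the factor Atf1, 3 were at least 2-fold lower, beside 1.5% of all genes, and 0 higher, with a median of -0.06. *lsd90*+ had 930.5 in *ash2*Δ and 6432 in WT, with 361, 1217 and 6513 in the other deletions, a log2 ratio of -2.79. WT and 1 deletion array were high for *lsd90*+ and *ash2*Δ was inside the range of the rest. *mug108*+ and *pyp2*+, which encodes a phosphatase of Sty1, had log2 ratios of -2.07 and -1.44. *ash2*Δ stood above the median of the other deletions for both, and WT was the highest array for *pyp2*+. *sty1*+, *atf1*+ and the catalase gene *ctt1*+ lay between -0.11 and 0.05.

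Genes that glucose represses and genes of glycerol use had a median of -0.11 over 16 measured members, of which 3 were at least 2-fold lower and 1 higher, beside 1.5% and 0.732% of all genes. *fbp1*+, which encodes the gluconeogenic enzyme fructose bisphosphatase, had 407 in *ash2*Δ and 1598 in WT, with 292, 463 and 8066 elsewhere, a log2 ratio of -1.97. *gld1*+, a glycerol dehydrogenase gene, and *inv1*+, the invertase gene, had log2 ratios of -1.52 and -1.23, with *ash2*Δ above the median of the other deletions in both. *dak2*+, which encodes a dihydroxyacetone kinase, was higher. It had 4482 in *ash2*Δ and 1243 in WT, with 993, 6366 and 14403 in the other deletions, a log2 ratio of 1.85, and *ash2*Δ was the fifth of the 9 arrays. Of 8 hexose transporter genes 1 was at least 2-fold lower, beside 1.5% of all genes. It was *ght4*+, at 1086 in *ash2*Δ and 3553 in WT, with 722, 1327 and 5152 elsewhere.

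Among the 15 genes with the highest ratios were *eng1*+, *adg1*+ and *adg2*+. *eng1*+, which encodes the glucanase of the primary septum, had 2375 in *ash2*Δ and 418 in WT, with 470.0, 1724 and 2611 in the other deletions, a log2 ratio of 2.51. *adg1*+ had 5274 in *ash2*Δ, the highest of the 9 arrays, and 1412 in WT, the lowest, with 2150, 2909 and 4919 elsewhere, a log2 ratio of 1.90. For *adg2*+ the log2 ratio was 1.49. WT was the lowest of the 9 arrays for all 3 genes, and none was 2-fold above the median of the other deletions.

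The G1/S wave, transcribed by the factor MBF at the start of S phase, had a median of 0.47, beside -0.01 over all genes. Of its 23 measured members 4 were at least 2-fold higher, beside 0.732% of all genes, and 0 lower. *cdt1*+, which encodes a replication licensing factor, had 566 in *ash2*Δ and 189 in WT, with 324, 433 and 661 in the other deletions, a log2 ratio of 1.58. *cdc22*+, *cdt2*+, whose product directs the destruction of Cdt1, and *rep1*+, an MBF activator gene, had log2 ratios of 1.44, 1.36 and 1.12. In all 4 WT was the lowest of the 9 arrays and *ash2*Δ lay between the median and the highest of the others. *cig2*+, *cdm1*+ and *cdc18*+ were just inside 2-fold, at 0.96, 0.93 and 0.92, and the MBF subunit genes *cdc10*+, *res1*+ and *res2*+ lay at -0.08, -0.54 and 0.03. The median of 53 DNA replication genes was 0.05. The 1 member past 2-fold, beside 2.23% of all genes, was *ssb3*+, a subunit gene of the single-strand binding protein RPA. Its signal was 521 in *ash2*Δ, the highest of the 9, and 249.5 in WT, the lowest.

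Of 50 measured checkpoint and repair genes 1 was at least 2-fold higher, beside 0.732% of all genes. It was *mag2*+, a DNA glycosylase gene, at 84.7 in *ash2*Δ and 35.6 in WT. WT was at background, a ratio of at least 2.21, and 1 other deletion was higher than *ash2*Δ, at 113. Of 51 mitosis and kinetochore genes 1 was at least 2-fold higher, beside the same 0.732%. It was *slp1*+, an activator gene of the anaphase-promoting complex, at 856 and 333, with 406, 718 and 1186 in the other deletions. WT was the lowest array for *slp1*+. Contractile ring and septation genes, 40 in all, had a median of 0.08 and none past 2-fold.

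**Figure D5:**
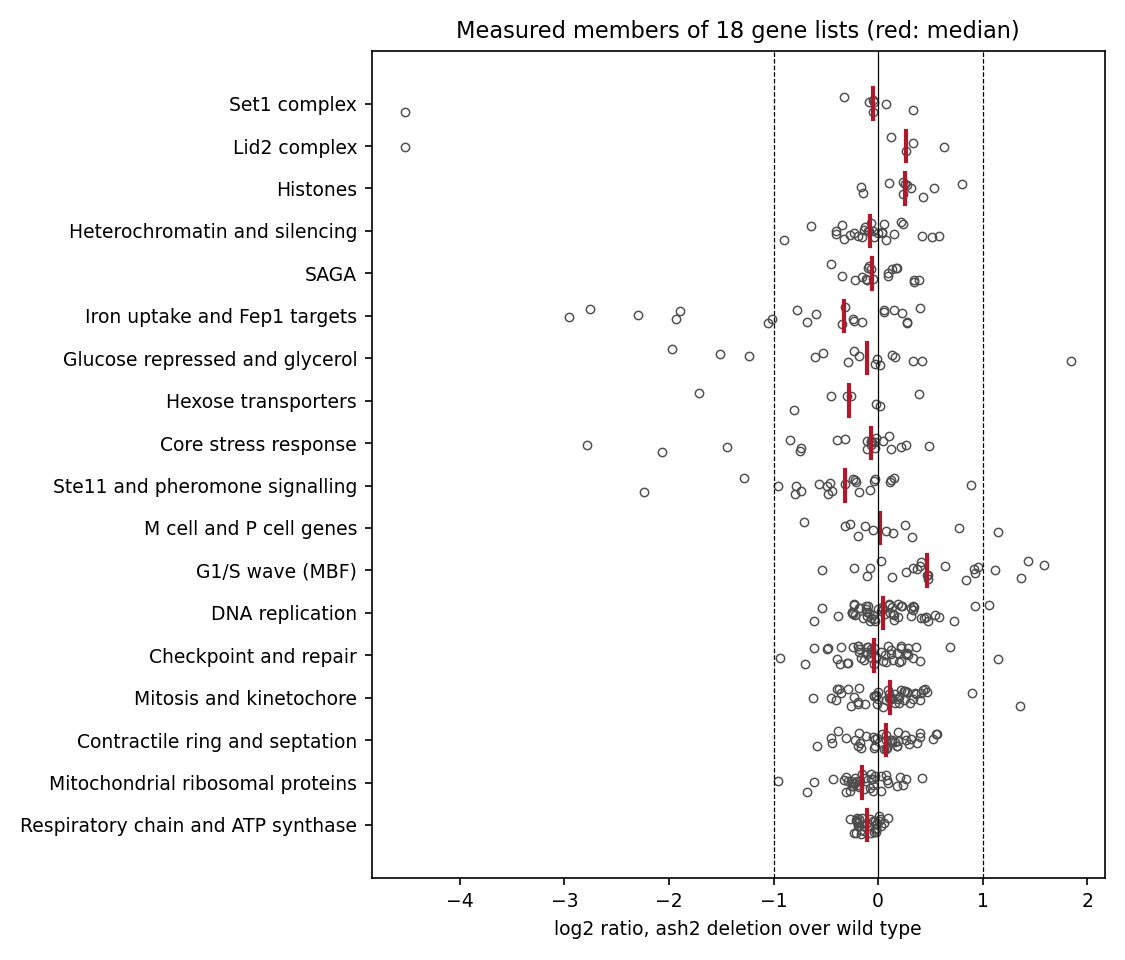
Log2 ratio of *ash2*Δ over WT of each measured member (open circles) of 18 of the 39 gene lists, with the median of a list as a red bar and dashed lines at 2-fold. The median of G1/S genes (0.47) lies to the right of 0, those of iron (-0.33) and Ste11 genes (-0.32) to the left.

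The 2 genes with the highest ratios lie toward the ends of chromosome II. *alr2*+, an alanine racemase gene, had 1334 in *ash2*Δ and 178 in WT, with 100.1, 268 and 932 in the other deletions, a log2 ratio of 2.90. *ash2*Δ was the highest array, with *sgf73*Δ, a deletion of a SAGA subunit, the next. *tlh2*+, which encodes a RecQ type helicase beside the telomere, had 442 in *ash2*Δ and 68.5 in WT, with 36.5, 57.3 and 429.8 elsewhere, a log2 ratio of 2.69. *ash2*Δ and *sgf73*Δ were level for *tlh2*+, and 6 arrays lay under 100. *tlh2*+ has a closely similar copy, *tlh1*+, at another chromosome end, and their RNAs were not told apart here.

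Among the 40 outermost protein-coding genes of each of the 6 chromosome ends, 59 of 240 were measured. Of these 5 were at least 2-fold higher, 8.47% beside 0.732% of all genes, and 3 at least 2-fold lower, 5.08% beside 1.5%. The higher ones were *tlh2*+, *alr2*+, *dak2*+, *grt1*+ and the proline transporter gene *put4*+, and the lower ones *mug14*+, *str3*+ and *mug135*+. The median of the 59 was -0.06, and 51 lay within 2-fold. *grt1*+, a transcription factor gene, had 104 in *ash2*Δ and 35.6 in WT, at background, with 29.4, 38.1 and 72.8 elsewhere, a ratio of at least 2.72. *ash2*Δ was the highest of the 9 arrays. *put4*+ had 5141 and 1922, with 1237, 3947 and 6767, a log2 ratio of 1.42, and *ash2*Δ was inside the range of the other deletions. With the 20 outermost genes of each end, 2 were higher and 0 lower, and with 60 the counts were 6 and 6, both chosen after the data had been seen.

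A higher signal in *ash2*Δ was also seen for the probe set that the array annotation names *pho1*+, the gene of a secreted acid phosphatase. Its gene ID now belongs to nc-pho1, a non-coding RNA whose annotated gene overlaps that of *pho1*+, and RNA of the 2 genes cannot be told apart by it. The signal of this probe set was 19651 in *ash2*Δ and 7755 in WT, with 2056, 3831 and 11857 in the other deletions. *ash2*Δ was the highest of the 9 arrays and WT was in the middle, a log2 ratio of 1.34. A probe set shared by 11 Tf2 retrotransposon genes had 11948 in *ash2*Δ and 6272 in WT, with 3518, 6621 and 9007 elsewhere. *ash2*Δ was again the highest, at 1.91 times WT, just inside 2-fold, and which Tf2 copies contributed cannot be told.

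Genes of heterochromatin and silencing were close to WT, with a median of -0.08 over 28 measured members and 0 past 2-fold. Their range ran from -0.90 for *clr4*+, the methyltransferase of histone H3 lysine 9, to 0.58 for *mmi1*+, which acts in the removal of meiotic RNAs. Among 20 other histone modifier genes *brl2*+ was the 1 past 2-fold, beside 2.23% of all genes, and the median was -0.05. The 11 histone genes had a median of 0.26 and none past 2-fold, with *hhf3*+, a histone H4 gene, the highest at 0.80. Its signal was 7124 in *ash2*Δ and 4095 in WT, with 5623, 6055 and 7796 in the other deletions, so that WT was below all 8 deletions. The 18 measured SAGA genes lay between -0.45 and 0.39.

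In all, 21 of the 39 lists had no member past 2-fold. The 118 cytosolic ribosomal protein genes had a median of -0.01 and the 39 mitochondrial ones of -0.16, with *ash2*Δ the lowest of the 9 arrays in 17 of the 39, beside 15.4% of all genes. Respiratory chain genes, 35 in all, lay between -0.27 and 0.09. The 37 amino acid synthesis genes had a median of 0.09, and *ash2*Δ was the highest array in 13 of them, beside 8.71% of all genes. *thi2*+, a thiamine synthesis gene, was the 1 of 8 in its list past 2-fold, beside 2.23% of all genes. Its signal was 10648 in *ash2*Δ and 24368 in WT, the highest array.

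Outside the lists were 25 of the 64 changed genes, among them the 7 *wtf* genes. Those not described above were chosen for mention after their values had been seen. On the lower side they included *tcb2*+, a tricalbin gene, *naa40*+, which encodes an N-terminal acetyltransferase of histones H4 and H2A, *pth4*+, *sgt1*+, *apc14*+, a subunit gene of the anaphase-promoting complex, *fmt1*+, *imt2*+ and *mrs2*+, a mitochondrial magnesium transporter gene. Their log2 ratios ran down to -1.27. Against the median of the other 7 deletions, *naa40*+, *apc14*+ and *fmt1*+ were still at least 2-fold lower, at -1.09, -1.19 and -1.04. The rest of those named, *tcb2*+, *pth4*+, *sgt1*+, *imt2*+ and *mrs2*+, fell short of 2-fold, at -0.94 to -0.34. On the higher side it was *mal1*+, a maltase gene, at 522 in *ash2*Δ and 252 in WT, with 185, 419 and 722 elsewhere. The strongest signals of all changed little, for example *eno101*+, the enolase gene, at 27079 in *ash2*Δ and 26069.9 in WT, and *tef101*+, an elongation factor gene, at 25469.8 and 25046.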

How the data were processed

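Total RNA was labelled with the GeneChip 3' IVT Express kit and hybridised to Affymetrix Yeast Genome 2.0 arrays, which cover *S. pombe* and *S. cerevisiae*. The authors deposited 1 normalized log2 signal per probe set and array. MAS5 appears in the submitters' processing notes with no role, and how values were normalized is not given there. Over all probe sets array medians lay between 5.06 and 5.15 log2 units, with *ash2*Δ the highest. Over the named *S. pombe* genes they lay between 10.48, in *ash2*Δ, and 10.58. No further normalization was applied.

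Probe sets were named through the array annotation of the platform, and genes and their order through the annotation of assembly ASM294v3. The sources used here do not give the build of the array design, so that no coordinates were used. For 7 genes the array's symbol differs from the current one, which is printed here. Where a gene had several probe sets, as 14 did, 1 was kept by type and then by mean signal. The 5177 unnamed probe sets, 20 shared ones and 213 controls were left out of the gene counts.

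On each array, 2601 *S. cerevisiae* probe sets set the background at their 95th percentile, and a gene was measured where 1 of the 2 arrays exceeded it. Genes at least 2-fold higher or lower were counted, with no test, and lists were described by their counts and median. Members and lists were chosen with earlier results of these data known. Genes to be named were the 15 highest and 15 lowest ratios, Set1 and Lid2 complex members, list members past 2-fold, the 10 genes farthest above and below the other 8 arrays, 5 genes on each side of *ash2*+ and the 3 strongest signals; *wtf* genes and the other 2-fold genes were added after their values had been seen. Of these, 1 list and 1 gene are not reported here. The alternatives are given in the closing section. The calculation was run on simulated arrays with planted changes larger than 2-fold and less noise than between these arrays. All planted changes were recovered, which checked the code and not the ratios reported here. Python 3.11.15, numpy 2.4.6, pandas 2.3.3 and matplotlib 3.10.9 were used.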

Additional observations from a re-analysis of the deposited data

Results flagged for a closer look

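For 8 genes past 2-fold in *ash2*Δ, another deletion lay past 2-fold on the opposite side of the same WT array, each on 1 array, and the difference was not tested. *str3*+ had a log2 ratio of -1.94, where *SPBC2A9.02*Δ had 3.59 and *SPAC27D7.08c*Δ 1.69. *str1*+ had -2.96 and, in *SPBC2A9.02*Δ, 1.14. *mug14*+ had -2.36 in *ash2*Δ and 2.10 to 2.43 in *SPAC27D7.08c*Δ, *SPBC2A9.02*Δ and *sgf73*Δ. *mei2*+ had -2.24, with 1.30 in *SPBC2A9.02*Δ, then 1.09 in *SPAC27D7.08c*Δ, and *ste4*+ had -1.28, with 1.17 in *SPAC27D7.08c*Δ. *fbp1*+ had -1.97 and *rmi1*+ -1.62, with 2.34 and 1.33 in *sgf73*Δ. The probe set of nc-pho1 or *pho1*+, which it cannot tell apart, was the 1 of these that was higher in *ash2*Δ, at 1.34. It had -1.92 to -1.02 in *SPAC27D7.08c*Δ, *SPAC3F10.17*Δ, *SPBC2A9.02*Δ and *sgf73*Δ.

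Outside the named genes, 2221 of 5177 probe sets with no gene name were measured. Of these 2221, 41 were at least 2-fold higher in *ash2*Δ and 53 lower. Of the 2870 named genes the counts were smaller, 21 and 43, or 0.732% and 1.5%. The probe set 1769975_at had 831 in *ash2*Δ and 15.9, at background, in WT, with 19.6 to 207 in the other deletions, a log2 ratio of at least 4.44. The probe set 1774823_s_at had 1893 and 89.4, with 90.1 to 270 elsewhere, a log2 ratio of 4.41. *ash2*Δ was thus alone at these levels for both. The lowest ratios were those of 1775306_at, at 108 in *ash2*Δ and 833 in WT, a log2 ratio of -2.95, and of 1772518_at, at 121 and 793, a log2 ratio of -2.72. A reporter control probe set had 10263 in *ash2*Δ and 20.8 in WT, and 4632 to 13657 in the other deletions. The shared Tf2 probe set, not counted among the genes, was at 1.91 times WT.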

How the results depend on the processing

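Quantile normalization, median scaling, no floor at background, a background required on both arrays or taken at the 99th percentile, and probe sets averaged per gene left every count within 1.5 times its value. The counts were 19 to 25 higher and 38 to 45 lower genes, 6 to 11 genes apart from the other 8 arrays, and 5 to 9 lower *wtf* genes. A pseudocount of 50 in place of the floor gave 14 and 29 genes, 4 genes apart and 5 *wtf* genes. With the other 7 deletions as the reference, 12 genes were higher and 27 lower, 4 *wtf* genes lower, and 3 genes near chromosome ends higher. Under that reference 7 changed genes turned sign, at log2 values of -0.51 for *dak2*+, 0.90 for *mug108*+, 0.19 for *fet4*+, -0.79 for *mfm2*+, 1.14 for *inv1*+, 0.36 for *gld1*+ and 0.81 for *pyp2*+.

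At 3-fold, 5 genes were higher and 19 lower, 1 stood apart, 0 stood apart in WT, 3 *wtf* genes were lower and 3 genes near the ends were higher. At 1.5-fold these were 86, 159, 26, 9, 11 and 8, with 8 genes near the ends lower. Chosen after the data had been seen, the 20 outermost genes gave 2 higher and 0 lower and the 60 outermost 6 lower, unnamed probe sets brought the counts to 62 and 96, and 11 genes stood apart when the arrays with the labels *sec65*Δ and *pab1*Δ were left out. No paired analysis was possible because each strain had 1 array, which also leaves no replicate to omit. Genes of low signal are limited by background, and the WT array, the reference of every ratio, had no second array.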
